A study of Mus musculus with 23 samples.

Results

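The ADAM genes are the family of membrane-anchored proteins that carry a metalloprotease-like and a disintegrin-like domain. They were chosen by name alone, as every gene of the count table whose mouse symbol is Adam followed by digits and at most 1 lower case letter, so that the secreted Adamts enzymes and pseudogenes were not included. The rule gave 34 of 27466 genes in the table, and 32 of them had enough reads to be tested. Adam7, an epididymal gene, and Adam28 were at or under 3 counts in every library of every group and were not tested. The 7 markers of epididymis epithelium, which can come along with testis tissue, summed to 0.125 to 1.62 CPM over all libraries, where CPM is a gene's count per 1000000 counts of its library.

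The study followed the first wave of spermatogenesis in CD-1 mice, labelled wild type, by RNA-Seq of poly-A RNA from whole testis tissue, which holds germ and somatic cells. The in vivo groups were testes taken from pups of 6.5 days postpartum (dpp), and then at 10.5 dpp, 22.5 dpp or 36.5 dpp. Explants cut from testes of 6.5 dpp mice were kept at the gas-liquid interface for 4 (D4), 16 (D16) or 30 (D30) days in a serum-replacement medium with gentamicin and retinol. D4 matches 10.5 dpp in age, D16 matches 22.5 dpp and D30 matches 36.5 dpp. Tissue was either fresh (FT) or had passed controlled slow freezing (CSF).

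The groups analysed were 6.5 dpp (1 fresh and 3 frozen libraries), 10.5 dpp (3 fresh), 22.5 dpp (3 fresh), 36.5 dpp (2 fresh), D4 (3 fresh), D16 (2 fresh) and D30 (3 fresh and 1 frozen). Cultured explants were pooled and their necrotic centre was cut away before RNA extraction, so the culture values describe the surviving rim. The labels do not say that libraries of a group came from separate animals, and the p-values measure the spread between these libraries. The 6.5 dpp FT replicate 3 held the same values as replicate 2 and was dropped, and 6.5 dpp FT replicate 1 was left out because its profile was like that of cultured tissue. Library totals ran from 28351546 to 69029328 counts. The testis label fits the markers: at 36.5 dpp the 8 elongating spermatid markers (Prm1, Prm2, Tnp1, Tnp2, Akap4, Odf1, Smcp, Oaz3) summed to 22500.5 to 28058 CPM, against 1.95 to 6.80 CPM at 10.5 dpp. Some libraries stood apart from their groups. The 8 round spermatid markers summed to 122 CPM in 22.5 dpp replicate 2, against 318 and 333 CPM in the other two, and to 37.3 CPM in D16 replicate 2, against 217 CPM in replicate 1. The 6.5 dpp CSF replicate 3 stood apart for Adam9, Adam17 and Adam22, and D30 FT replicate 3 for Adam12 and Adam17.

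ADAM proteins fall into classes with different work. Proteolytic members such as ADAM10 and ADAM17 cut the extracellular part off other membrane proteins, among them Notch receptors, growth factor precursors and cytokines. A large class is made in male germ cells, where several members have lost the catalytic residues and act in cell adhesion: ADAM1A, ADAM1B, ADAM2 and ADAM3 assemble in the endoplasmic reticulum and on the sperm surface, and mouse sperm without ADAM2 or ADAM3 fail to pass from the uterus into the oviduct. ADAM11, ADAM22 and ADAM23 have no protease activity and are best known as neuronal receptors of the secreted LGI proteins. By these roles the 34 genes were set into 21 testis ADAMs, 9 broadly expressed proteolytic ADAMs, 3 neural ADAMs without protease activity, and the epididymal Adam7.

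Many testis ADAMs lie beside a close copy, which bears on how far their reads can be told apart. On chromosome 8, Adam24, Adam25, Adam20 and Adam39 lie together at chr8:40675077-40826861, and Adam26b, Adam26a, Adam34l and Adam34 at chr8:43519864-43703424 (GRCm38). Adam18, Adam3, Adam5, Adam32 and the broadly expressed Adam9 neighbour each other at chr8:24602246-25017040. Adam1b and Adam1a are neighbours at chr5:121500096-121521695, Adam6b and Adam6a at chr12:113489565-113546414, and Adam4 and Adam21 at chr12:81419443-81568474. Of the exonic stretches of 50 bases, the read length, 51.9% in Adam1a also occur in some other gene and 30.9% in Adam1b, while 29.5% in Adam6a also occur in Adam6b, and 32.8% in Adam20 also occur in Adam25 or Adam39. The shares with other ADAM genes were 34.3% in Adam26a, 32.6% in Adam26b, 34.7% in Adam39, 16.8% in Adam34 and 9.97% in Adam34l. Adam4 shared 13.2% with the predicted gene Gm4787, which is no member by the rule, and 15.4% of Adam15 lay in stretches held by other genes. Counts that separate these copies from each other are therefore uncertain. Adam34 lies inside the span of Adam34l, and the strand setting of the counting was not given in the sources used here, so overlapping genes carry the same limit.

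RefSeq promoter windows (250 bases before to 50 bases after the start, GRCm38.p6) were held for 18 of the 34 genes, in 20 windows. They are printed 5′ to 3′ on the strand of the gene, with each CG dinucleotide in capitals. The first pair is shown because Adam1a and Adam1b, neighbours with related transcripts, had different time courses; the next pairs because Adam20 and Adam25, and Adam6a and Adam6b, share transcript sequence with each other; and Adam10 and Adam23 because they were the most strongly read ADAM gene of young testis and the ADAM gene with the largest called change in the first culture days.
Adam1a, chr5:121521646-121521945, minus strand: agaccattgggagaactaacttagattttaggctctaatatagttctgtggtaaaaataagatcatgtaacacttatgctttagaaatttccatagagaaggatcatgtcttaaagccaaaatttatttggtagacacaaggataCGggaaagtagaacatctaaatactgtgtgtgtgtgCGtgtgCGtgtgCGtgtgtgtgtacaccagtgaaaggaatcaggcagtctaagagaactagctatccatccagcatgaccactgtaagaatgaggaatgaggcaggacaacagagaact
Adam1b, chr5:121503386-121503685, minus strand: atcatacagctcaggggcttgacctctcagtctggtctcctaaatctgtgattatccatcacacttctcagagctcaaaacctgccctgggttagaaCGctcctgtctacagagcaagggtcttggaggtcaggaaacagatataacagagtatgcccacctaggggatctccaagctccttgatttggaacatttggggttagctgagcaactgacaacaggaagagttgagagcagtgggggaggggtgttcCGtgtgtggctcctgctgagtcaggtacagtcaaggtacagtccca
Adam20, chr8:40793023-40793322, plus strand: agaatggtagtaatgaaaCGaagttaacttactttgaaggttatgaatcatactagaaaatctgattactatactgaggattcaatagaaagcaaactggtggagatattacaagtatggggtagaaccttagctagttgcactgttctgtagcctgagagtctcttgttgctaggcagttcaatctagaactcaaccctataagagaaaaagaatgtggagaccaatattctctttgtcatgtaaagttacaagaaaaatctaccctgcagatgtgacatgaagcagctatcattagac
Adam25, chr8:40751958-40752257, plus strand: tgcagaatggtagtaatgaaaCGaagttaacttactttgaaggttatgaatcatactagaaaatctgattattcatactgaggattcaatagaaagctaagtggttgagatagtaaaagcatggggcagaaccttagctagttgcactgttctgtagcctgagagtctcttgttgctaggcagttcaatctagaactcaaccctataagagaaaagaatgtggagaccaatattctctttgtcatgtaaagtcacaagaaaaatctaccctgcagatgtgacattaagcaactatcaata
Adam6a, chr12:113543658-113543957, plus strand: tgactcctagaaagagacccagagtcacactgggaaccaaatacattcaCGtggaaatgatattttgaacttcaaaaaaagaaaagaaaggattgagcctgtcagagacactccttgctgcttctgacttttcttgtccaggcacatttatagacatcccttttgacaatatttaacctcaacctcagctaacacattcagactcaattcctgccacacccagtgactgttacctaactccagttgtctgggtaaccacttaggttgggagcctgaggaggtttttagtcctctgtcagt
Adam6b, chr12:113489315-113489614, plus strand: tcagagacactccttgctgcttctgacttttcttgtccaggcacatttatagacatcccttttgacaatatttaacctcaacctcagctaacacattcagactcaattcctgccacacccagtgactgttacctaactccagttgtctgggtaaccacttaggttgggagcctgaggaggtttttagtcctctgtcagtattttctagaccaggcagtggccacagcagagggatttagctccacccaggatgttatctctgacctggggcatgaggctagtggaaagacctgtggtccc
Adam10, chr9:70678732-70679031, plus strand: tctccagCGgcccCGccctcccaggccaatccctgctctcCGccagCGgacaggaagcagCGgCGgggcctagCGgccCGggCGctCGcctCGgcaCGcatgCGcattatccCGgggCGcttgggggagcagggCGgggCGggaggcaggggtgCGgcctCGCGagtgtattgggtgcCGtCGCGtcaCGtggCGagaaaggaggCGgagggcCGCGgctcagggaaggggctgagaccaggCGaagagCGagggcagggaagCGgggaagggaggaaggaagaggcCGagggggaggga
Adam23, chr1:63445641-63445940, plus strand: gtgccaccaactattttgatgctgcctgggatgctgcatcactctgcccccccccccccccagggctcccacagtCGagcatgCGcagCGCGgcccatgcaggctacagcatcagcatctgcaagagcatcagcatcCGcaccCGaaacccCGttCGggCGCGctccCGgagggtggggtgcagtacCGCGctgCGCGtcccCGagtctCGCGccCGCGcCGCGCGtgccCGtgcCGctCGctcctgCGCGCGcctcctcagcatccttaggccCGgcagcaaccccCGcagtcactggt

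Within the 20 windows held, the number of CG dinucleotides differed between the classes. The 11 windows of testis ADAMs held 0 to 4 CG each, with a median of 1. All 11 were of genes with a single coding exon. The testis ADAMs with more than 1 coding exon (Adam2, Adam3, Adam5, Adam18 and Adam32) had no window, so the class was covered only in part. The 7 windows of the broadly expressed class (5 genes) held 5 to 32 and those of Adam22 and Adam23 held 19 and 31, against a median of 7 over all 32851 RefSeq promoters, of which 38% held 4 or fewer. All motifs were searched on both strands. The cAMP response element TGACGTCA was in 0 of the 11 testis windows and in 1.79% of all promoters. Its shorter part TGACG, which lies within that element, was also in 0 of 11, against 20.8% of all. TATAAA was in 4 of 11 (Adam29, Adam34l, Adam6a and Adam6b; 36.4%), against 13.6% of all promoters. In Adam6a and Adam6b the match was on the strand opposite to the gene and lay in a stretch that both windows share, so these matches are not separate. These are descriptions of letters in a window and say nothing about which factors bind. The windows of Adam20 and Adam25 were identical at 284 of 300 aligned bases, Adam6a and Adam6b shared an unbroken run of 199 bases, and the Adam1a and Adam1b windows were identical at 150 of 300.

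At 6.5 dpp, at 10.5 dpp and at D4 the most strongly read members of the family were proteolytic ones. Per kilobase of exon, Adam10 had the highest mean level of all 34 genes at 6.5 dpp (52.5 CPM per kb), at 10.5 dpp (55.0 CPM per kb) and at D4 (66.9 CPM per kb), followed by Adam9 and Adam17 at each of these stages. At 6.5 dpp the means of Adam9 and Adam17 were 16.7 and 15.7 CPM per kb, and Adam15 came next with 6.04 CPM per kb. The 21 testis ADAMs together held 4.37 to 5.40 CPM at 6.5 dpp and 5.12 to 5.99 CPM at 10.5 dpp, and 11 of them (Adam6a, Adam6b, Adam20, Adam24, Adam25, Adam26a, Adam26b, Adam29, Adam34, Adam34l and Adam39) were at or under 3 counts in every library of both ages. Between 6.5 and 10.5 dpp no ADAM gene was called by edgeR's quasi-likelihood test with Benjamini-Hochberg adjustment over all 19255 genes tested, where a call needs a change of at least 2-fold and an adjusted p under 0.05. Over all genes 0.904% were called. The count of ADAM genes at an unadjusted p under 0.05 was 4, and DESeq2 called 0.

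All 21 testis ADAMs rose between 10.5 and 22.5 dpp, the interval in which the first germ cells complete meiosis and become round spermatids. With Adam11 they made 22 ADAM genes called higher, against 2 called lower (Adam12 and Adam19); over all genes 27.9% were called higher and 18.4% lower. The median fitted log2 change of the testis ADAMs was 9.23, or 5.92 with the genes that were at or under 3 counts in every 10.5 dpp library set to their lower bound, against 0.06 over all genes tested. In whole tissue a larger number of cells of a type and more RNA per cell cannot be told apart. All 8 round spermatid markers and all 8 spermatocyte markers rose in the same comparison. With the second library of 22.5 dpp and of D16 left out, which was tried after the data were seen, 25 ADAM genes were called. In a fit of these ages alone 21 of the 24 calls were kept. Adam4, Adam6a and Adam6b failed the filter on low counts there and were tested only through other groups.

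Adam2, the partner of ADAM1A and ADAM1B, was read at 0.269, 0.362 and 0.273 CPM at 10.5 dpp and at 794, 489 and 759 CPM at 22.5 dpp. Its groups were far apart, and the second 22.5 dpp library was the lowest of its group. The fitted change was 11.46 ± 0.65 (SE) on the log2 scale, with an adjusted p of 5.8e-10 (edgeR). Adam3, needed for sperm transport, was at 0.337, 0.139 and 0.564 CPM at 10.5 dpp and rose to 834, 426 and 807 CPM, a log2 change of 11.21 ± 0.72. Adam5, which on sperm is found in a complex with ADAM3, went from 1.17 to 1.71 CPM to 1319, 718 and 1199 CPM. With these values Adam5 had the highest level per kilobase of the family at 22.5 dpp (345 CPM per kb), ahead of Adam2 (253 CPM per kb), Adam3 (234 CPM per kb) and Adam32 (180 CPM per kb); the libraries of Adam2 and Adam3 overlapped in CPM. Adam5 was also first in the family per kilobase at 36.5 dpp (577 CPM per kb), at D16 (160 CPM per kb) and at D30 (214 CPM per kb), where Adam10 stood at 47.4 CPM per kb.

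Adam24, which encodes a protease of the sperm surface, was at 0 to 0.0449 CPM at 10.5 dpp and at 22.4, 4.85 and 20.6 CPM at 22.5 dpp. All 10.5 dpp libraries were at the floor of 3 counts, so it was at least 191-fold higher, and the second 22.5 dpp library was again the lowest. Adam4 was the single testis ADAM whose libraries overlapped between these ages, where 33.3% of all genes tested had every 22.5 dpp library above every 10.5 dpp library. It was read at 0.0546 to 0.180 CPM at 10.5 dpp and at 2.72, 0.0439 and 1.83 CPM at 22.5 dpp. Adam6a followed the same order at 22.5 dpp, with 3.96, 0.0439 and 3.41 CPM, against at most 0.0364 CPM at 10.5 dpp. The lowest 22.5 dpp library of Adam6b was at 0.0658 CPM, against at most 0.0182 CPM at 10.5 dpp. For both genes these neighbouring values lie within the floor of 3 counts, so their lack of overlap is not firm.

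**Figure D1:**
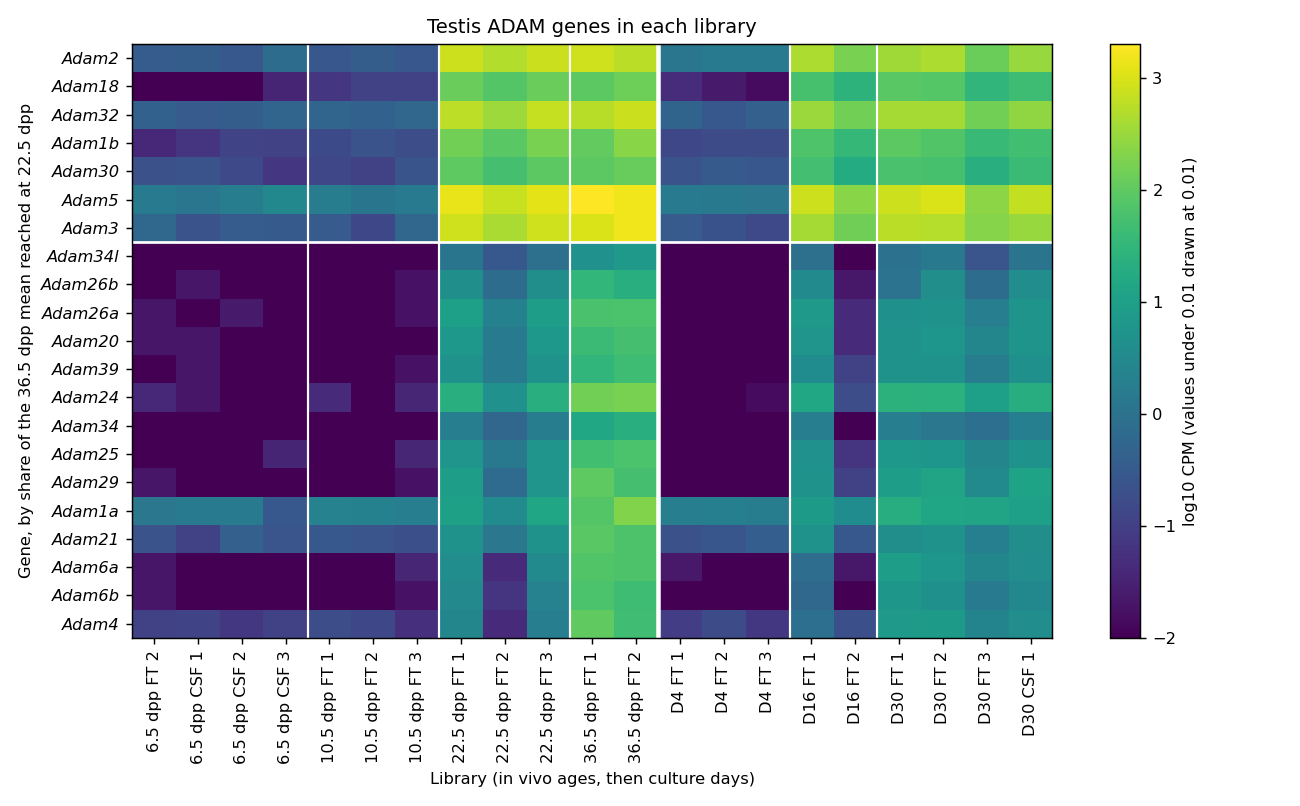
Level of each of the 21 testis ADAM genes (rows) in each of the 21 libraries (columns), as log10 CPM by colour, with values under 0.01 CPM drawn at 0.01. Rows are ordered by the share of the 36.5 dpp mean reached at 22.5 dpp; the 7 genes above the horizontal line were bright from 22.5 dpp and from D16 on, and the 14 below it were bright at 36.5 dpp, with the second 22.5 dpp and the second D16 library dark among their groups.

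From 22.5 to 36.5 dpp, when round spermatids elongate, the testis ADAMs separated into an early and a late set. Of the 21 genes 15 rose again and none fell, while 6 broadly expressed or neural members fell; over all genes 20.5% were called higher and 17.2% lower. The 6 testis ADAMs with no call were Adam1b, Adam2, Adam5, Adam18, Adam30 and Adam32. With RLE size factors in place of TMM the split among all ADAM genes was 16 higher and 3 lower. Without the second library of 22.5 dpp and of D16 it was 14 higher and 4 lower.

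At 22.5 dpp 7 genes had reached between 54.9% and 98.4% of their 36.5 dpp mean: Adam2 98.4%, Adam18 94.9%, Adam32 84.1%, Adam1b 80.9%, Adam30 79.4%, Adam5 59.7% and Adam3 54.9%. The other 14 stood at 2.08% to 13.1% and no gene lay between. The division at 50% was drawn after these values were seen. These shares use CPM from library totals, while the fitted changes use TMM. By the fit, Adam3 changed by more than 2-fold between these ages, so under TMM it would lie below 50%. Adam5, at 59.7% by CPM and with no call, would also lie below 50% under the same shift of scale. The shares and the places of Adam3 and Adam5 therefore depend on the scaling. The late set was made of genes with a single coding exon in all 14 cases, and 14 of the 16 single-coding-exon testis ADAMs rose between 22.5 and 36.5 dpp, against 1 (Adam3) of the 5 genes with more coding exons (Adam2, Adam3, Adam5, Adam18 and Adam32). The Adam3 call, with a log2 change of 1.35 ± 0.50 (adjusted p of 0.033, edgeR), was lost in 6 of 15 alternatives, among them leaving out 22.5 dpp replicate 2 (1.06 ± 0.54) or 36.5 dpp replicate 2 (0.97 ± 0.61), with adjusted p from 0.018 to 0.63 over all of them. Adam1b and Adam30 were the single-coding-exon genes of the early set.

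Summed over libraries, the early set stood at 2182 to 3911 CPM at 22.5 dpp and 4650 to 4902 CPM at 36.5 dpp. The late set stood at 18.9 to 91.9 CPM at 22.5 dpp and 880 to 924 CPM at 36.5 dpp. The sets were drawn from these same groups, so the higher sums of the late set at 36.5 dpp follow from the division. Adam24 went to 149 and 168 CPM, Adam4 to 101 and 46.4 CPM, and Adam21 from 4.96, 1.27 and 5.28 CPM to 88.7 and 65.5 CPM. Their log2 changes were 3.78 ± 0.92, 6.05 ± 0.90 and 4.80 ± 0.77, with adjusted p of 0.0025, 4.6e-05 and 9.6e-05 (edgeR). Adam2 was at 807 and 577 CPM at 36.5 dpp, within reach of its 22.5 dpp libraries, and its log2 change of 0.51 ± 0.45 passed no threshold. The 8 elongating spermatid markers moved with the late set, from 37.6 to 238 CPM in sum at 22.5 dpp to 22500.5 to 28058 CPM at 36.5 dpp, and all 8 rose; their part in the ADAM levels was not tested.

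Adam1a and Adam1b, which encode alternative partners of ADAM2, changed their order with age. ADAM1A stays in the endoplasmic reticulum, where it is needed for ADAM3 to leave, and ADAM1B reaches the sperm surface. At 10.5 dpp the Adam1a count was 9.75 to 14.4 times that of Adam1b. At 22.5 dpp, where Adam1b stood at 146, 89.4 and 168 CPM and Adam1a at 10.4, 3.60 and 13.7 CPM, the ratio was 0.0403 to 0.0814. At 36.5 dpp Adam1a reached 74.6 and 202 CPM beside 104 and 228 CPM of Adam1b, a ratio of 0.719 to 0.884, and the log2 change of Adam1a from 22.5 dpp was 4.39 ± 0.59 (adjusted p of 1.8e-05, edgeR). The groups of ratios did not overlap. Reads from stretches shared with other genes, 51.9% of those of Adam1a and 32.4% of those of Adam1b, cannot be assigned to one gene, which limits these ratios.

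Of the 8 tested broadly expressed proteases 5 fell in vivo between 22.5 and 36.5 dpp and none rose in either step. Over all genes 17.2% were called lower and 20.5% higher from 22.5 to 36.5 dpp, and 27.9% higher from 10.5 to 22.5 dpp. Adam10 stood at 304, 264 and 243 CPM at 10.5 dpp, 102, 165 and 82.2 CPM at 22.5 dpp, and 31.4 and 29.8 CPM at 36.5 dpp. Each group lay below the one before it without overlap, and the second 22.5 dpp library, low for the testis ADAMs, was high for Adam10. From 22.5 to 36.5 dpp the log2 change was -1.40 ± 0.23 (adjusted p of 0.00013, edgeR); from 10.5 to 22.5 dpp it was -0.94 ± 0.20, short of 2-fold. Adam12, known from muscle and fat formation, fell in both steps, from 45.4 to 50.7 CPM through 9.04 to 14.7 CPM to 2.20 and 3.34 CPM. Adam19 fell in both steps as well, from 30.1 to 33.7 CPM to 1.93 and 3.42 CPM. Adam9, Adam17 and the neural Adam23 fell between 22.5 and 36.5 dpp, with log2 changes of -1.18 ± 0.24, -1.09 ± 0.21 and -1.16 ± 0.21; these 3 calls were lost with RLE size factors and with DESeq2. Adam8, Adam15 and Adam33 passed no call in either step. The Sertoli cell and peritubular markers moved in the same direction: 5 of 8 and 6 of 7 fell between 22.5 and 36.5 dpp, and the peritubular sum went from 755 to 1206 CPM to 184 to 274 CPM. Leydig cell markers did not: 3 of 6 rose and 0 fell, and their sum went from 878 to 965 CPM to 1571 to 1947 CPM. The part of these markers was not tested.

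The choice of scaling moved the bulk of genes. With library size only in place of TMM the median log2 change of all genes went from 0.06 to -0.23 for 22.5 against 10.5 dpp (4651 genes higher and 5016 lower instead of 5366 and 3541), and from -0.13 to -0.63 for 36.5 against 22.5 dpp (2936 and 6785 instead of 3956 and 3316). For D30 against 36.5 dpp it went from -0.03 to 0.60 (7548 and 3909 instead of 4861 and 5730), and the ADAM calls were then 8 higher and 21 lower. The fitted changes given here therefore depend on TMM scaling, under which these medians were 0.06, -0.13 and -0.03. No named ADAM change turned its direction with another scaling. Consecutive comparisons share libraries and are not independent of each other.

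**Figure D2:**
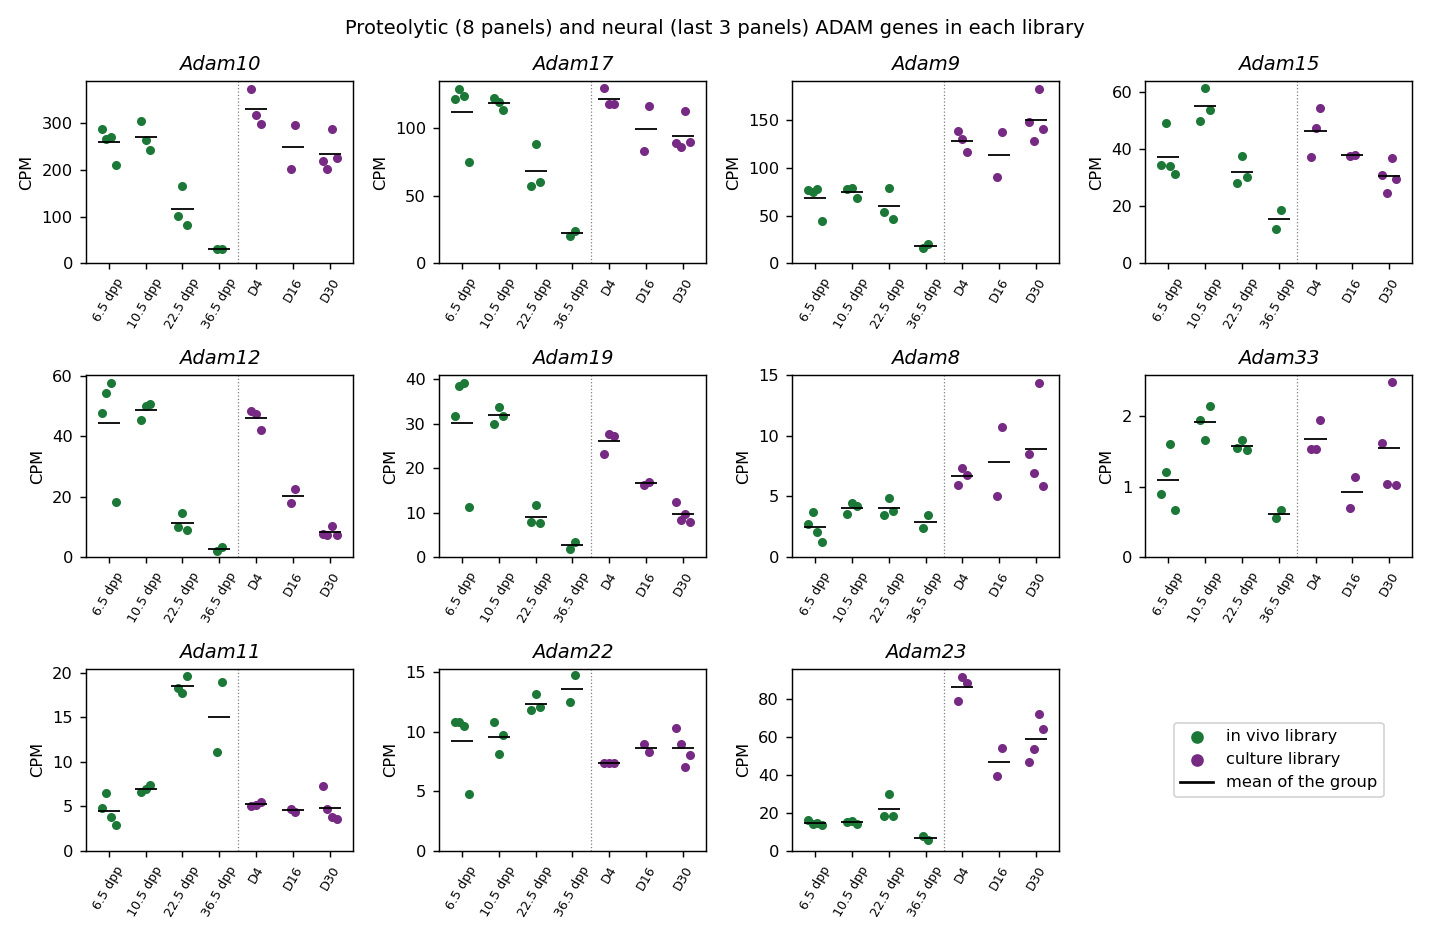
CPM of 8 broadly expressed proteolytic ADAM genes and, in the last 3 panels, the neural ADAM genes, in every library (points, in vivo green and culture purple) with the group mean (line), on linear axes that start at 0. Adam10, Adam17, Adam12 and Adam19 fell with age in vivo, every D30 library of Adam10, Adam9 and Adam17 lay above the 36.5 dpp libraries, and Adam23 stood at 78.8 to 91.7 CPM at D4 against 13.7 to 16.2 CPM at 6.5 dpp.

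In the first 4 days of culture 3 ADAM genes rose against 6.5 dpp (Adam23, Adam2 and Adam8) and none fell, while 6.87% of all genes were called higher. Adam23, a neuronal receptor of LGI proteins, was at 16.2, 14.2, 14.8 and 13.7 CPM at 6.5 dpp and at 78.8, 91.7 and 88.6 CPM at D4. The groups lay far apart, and 10.5 dpp, with 15.5, 16 and 14.2 CPM, was like 6.5 dpp. The log2 change was 2.58 ± 0.17 against 6.5 dpp (adjusted p of 1.7e-08, edgeR) and 2.59 ± 0.19 against 10.5 dpp (adjusted p of 1.1e-07). Both comparisons use the same D4 libraries. Beside it, the summed neuron and Schwann cell markers were 207 to 270 CPM at 6.5 dpp and 327 to 391 CPM at D4, with 1 of the 5 tested markers higher; their part was not tested.

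Adam2 was at 0.355, 0.374, 0.292 and 0.741 CPM at 6.5 dpp and at 1.23, 1.61 and 1.59 CPM at D4, all D4 libraries above all others. Its log2 change was 1.81 ± 0.46 (adjusted p of 0.0091, edgeR), and against 10.5 dpp it was 2.38 ± 0.52 (adjusted p of 0.0066). No other testis ADAM was called at D4, and the spermatocyte markers, of which 4 of 8 were higher than at 6.5 dpp, summed to 547 to 655 CPM at D4 and 237 to 256 CPM at 6.5 dpp. Adam8, an ADAM of leukocytes, was at 2.78, 3.72, 2.12 and 1.23 CPM at 6.5 dpp and 5.94, 7.36 and 6.78 CPM at D4, a log2 change of 1.47 ± 0.33; the macrophage markers summed to 70.7 to 135 CPM and 63.6 to 89.2 CPM in these groups. With fresh libraries only, 1 library was left at 6.5 dpp and was assumed to vary like the other groups; the log2 changes were then 2.48 for Adam23 (adjusted p of 0.00043, edgeR), 2.11 for Adam2 (0.19) and 1.33 for Adam8 (0.12). Against 10.5 dpp the calls were Adam2 and Adam23, where 3.45% of all genes were called higher, and Adam8 at 0.80 ± 0.35 was not called. Adam9 was higher by 0.94 ± 0.19 against 6.5 dpp (adjusted p of 0.0017), short of 2-fold.

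The testis ADAMs also rose in the explants. From D4 to D16 19 of the 21 testis ADAMs rose and Adam12 fell, where 16.6% of all genes were called higher and 3.21% lower. Adam4 and Adam6b were not called. The filter on low counts spanned all 7 groups. In a fit of D4 and D16 alone, 9 of the 20 calls were kept and 1 was lost. The rest failed the filter there and were tested only through other groups. They were Adam6a, Adam20, Adam24, Adam25, Adam26a, Adam26b, Adam29, Adam34, Adam34l and Adam39. The median log2 change of the testis ADAMs was 8.58, or 5.13 with genes at the floor at their bound, against 0.03 over all genes. All 8 round spermatid markers and 6 of 8 spermatocyte markers rose too; their part was not tested. Both D16 libraries carried the early set at high levels: Adam2 was at 438 and 173 CPM, Adam3 at 379 and 144 CPM, and Adam5 at 775 and 228 CPM, all far above D4. The late set was carried by the first library, with Adam24 at 15.4 and 0.175 CPM and Adam29 at 4.93 and 0.109 CPM. Without D16 replicate 1 the ADAM genes called numbered 7, and without replicate 2 they numbered 22.

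Against 22.5 dpp, the matching age, 7 ADAM genes were lower at D16 (Adam1b, Adam2, Adam3, Adam11, Adam18, Adam30 and Adam32) and none higher, against 8.24% of all genes called lower. Of all 19255 genes tested, 3287 were called in either direction, 1587 of them lower. Of these 7 ADAM genes 6 belonged to the early testis set, with log2 changes from -1.57 ± 0.54 (Adam3) to -1.32 ± 0.48 (Adam2). These 6 had every D16 library below every 22.5 dpp library, as had 21.5% of all genes tested. The other 15 of the 21 testis ADAMs overlapped between the groups. Spermatocyte markers summed to 1794 to 2584 CPM at D16 and 4192 to 4752 CPM at 22.5 dpp, with 4 of 8 lower and none higher. Sertoli cell markers summed to 5204 to 7313 CPM against 1668 to 2890 CPM, with 6 of 8 higher and 1 lower, and 4 of 5 endothelial markers were higher. Their part was not tested. These calls depended on single libraries: 24 genes were called without D16 replicate 1, 12 without 22.5 dpp replicate 2, and 1 without D16 replicate 2 or without 22.5 dpp replicate 1 or 3. With the second library of both groups left out, which was tried after the data were seen, 2 were called. With library size only the split was 2 higher and 6 lower. Adam11 was the most distinct of the 7, with 18.2, 17.7 and 19.6 CPM at 22.5 dpp and 4.68 and 4.41 CPM at D16, a log2 change of -2.19 ± 0.35 (adjusted p of 0.00038, edgeR).

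The step from D4 to D16 differed from the step from 10.5 to 22.5 dpp in 3 ADAM genes by the test of the difference, all lower in culture, against 4.09% of all genes. Adam2 rose less by 3.71 ± 0.71 on the log2 scale, from a D4 level that was already higher. Adam11 rose in vivo (1.71 ± 0.30) and not in culture (-0.15 ± 0.33), a difference of -1.86 ± 0.45. Adam23 had a difference of -1.66 ± 0.27, again from a raised D4 level. In the same test 4 of 8 spermatocyte markers were lower in culture, and of the 8 Sertoli cell markers 4 were higher and 1 lower. Their part was not tested. Of all 19255 genes this test called 1701 in either direction, 788 of them lower.

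From D16 to D30 no testis ADAM was called. The family's 1 call was Adam12, from 17.9 and 22.6 CPM to 7.70, 7.22, 10.5 and 7.31 CPM (log2 change of -1.28 ± 0.29, adjusted p of 0.028, edgeR), with 0.254% of all genes called lower. The call was lost without any one of D16 replicate 2 and D30 FT replicates 1 and 2 and the D30 CSF library. With D16 replicate 1 left out 12 ADAM genes were called. Adam24 was at 25.4, 24.3, 9.65 and 20.5 CPM at D30, and Adam6a at 8.72, 6.00, 2.77 and 3.92 CPM against 0.779 and 0.0219 CPM at D16. Adam6a was among 4 of the 21 testis ADAMs with every D30 library above every D16 library, and the other 17 overlapped. The share over all genes tested was not determined. The log2 change of Adam6a was 3.80 ± 1.12 with an adjusted p of 0.11 (edgeR).

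At the end of culture all 21 testis ADAMs were lower than at 36.5 dpp, in every D30 library against every 36.5 dpp library, as were 25.2% of all genes tested. The median log2 difference was -3.84, against -0.03 over all genes. In the whole family 23 genes were lower and 5 higher, where 29.8% of all genes were called lower and 25.2% higher, and the count of ADAM genes called stayed at 27 to 29 when each library was left out in turn. The neural Adam11 and Adam22 were the other lower genes, and Adam9, Adam10, Adam17, Adam19 and Adam23 the higher ones.

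The early and late sets also differed at D30, measured against the same 36.5 dpp means that had drawn the division. At D30 the early set had 32.3% to 53.7% of the 36.5 dpp mean, with a median of 43.9%, and the late set 5.07% to 15.6%, with a median of 8.99%. These shares use library totals, not TMM. Adam2 was at 349, 448, 128 and 307 CPM at D30 against 807 and 577 CPM, a log2 difference of -1.79 ± 0.42 (adjusted p of 0.0011, edgeR). Adam3 was at 573, 522, 222 and 304 CPM against 981 and 1528 CPM, a log2 difference of -2.25 ± 0.46 (adjusted p of 0.0004). D30 FT replicate 3 was the lowest of its group for both.

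Adam21 was at 4.23, 5.22, 1.96 and 4.22 CPM at D30 against 88.7 and 65.5 CPM, the largest difference of the family at -4.92 ± 0.69 (adjusted p of 1.1e-05, edgeR). Adam4 was at 7.39, 7.68, 2.42 and 3.97 CPM against 101 and 46.4 CPM (-4.39 ± 0.74). Adam1a was at 20.4, 13.3, 12.2 and 9.80 CPM against 74.6 and 202 CPM (-3.95 ± 0.52), while Adam1b differed by -2.02 ± 0.38. The Adam1a to Adam1b count ratio at D30 was 0.179 to 0.322, above that at D16 (0.107 to 0.109) and below that at 36.5 dpp.

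Germ cell markers moved with the testis ADAMs. All 8 elongating spermatid markers were lower at D30, with a sum of 540 to 2447 CPM against 22500.5 to 28058 CPM, and all 8 round spermatid markers, with 133 to 350 CPM against 1898 to 1962 CPM. Spermatocyte markers summed to 1024 to 2351 CPM against 2246 to 2951 CPM, with 3 of 8 lower. Their part in the ADAM differences was not tested.

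**Figure D3:**
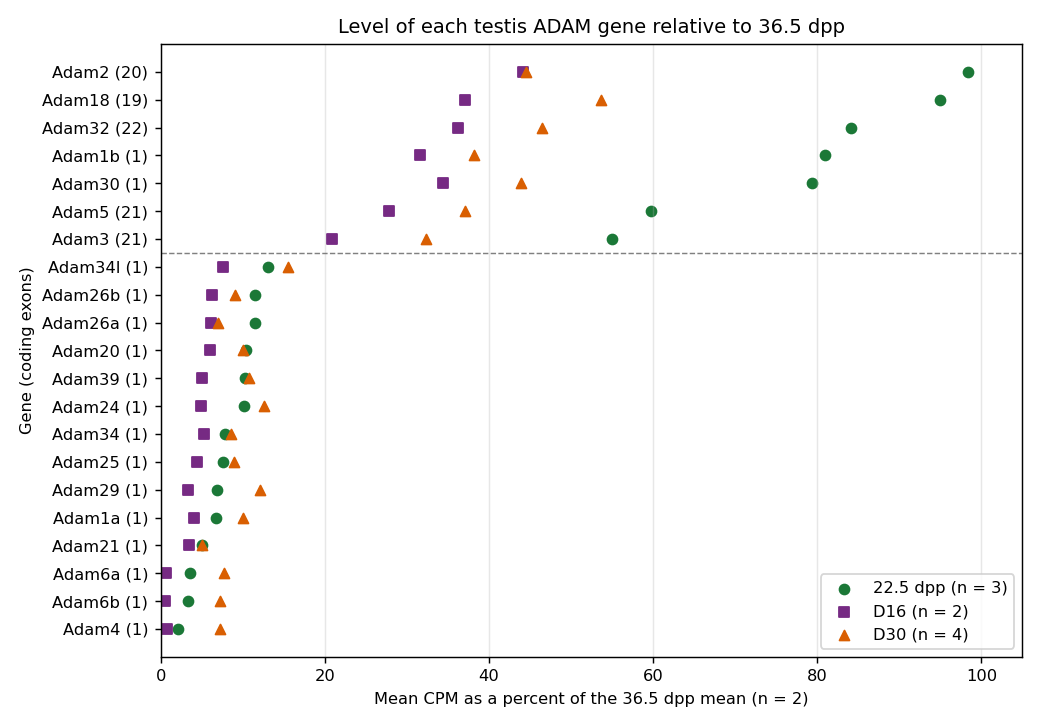
Mean CPM of each testis ADAM gene at 22.5 dpp (circles, n = 3), D16 (squares, n = 2) and D30 (triangles, n = 4) as a percent of its 36.5 dpp mean (n = 2), with the most coding exons of any transcript in brackets. The 7 genes above the dashed line lay at 54.9% to 98.4% at 22.5 dpp and 32.3% to 53.7% at D30, and the 14 below it, each with 1 coding exon, at 2.08% to 13.1% and 5.07% to 15.6%.

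Among the broadly expressed proteases 4 were higher at D30 than at 36.5 dpp and none was lower. Over all genes 25.2% were called higher and 29.8% lower. Adam10, the Notch and APP sheddase, was at 219, 202, 286 and 224 CPM at D30 against 31.4 and 29.8 CPM at 36.5 dpp. The D30 libraries lay near the 6.5 dpp ones (287, 266, 269 and 210 CPM), and the log2 difference from 36.5 dpp was 2.29 ± 0.24 (adjusted p of 5.4e-07, edgeR). Adam9 was at 148, 128, 182 and 140 CPM against 16.2 and 20.3 CPM, a log2 difference of 2.39 ± 0.24 (adjusted p of 5e-07); every D30 library also lay above every 6.5 dpp library. Adam17, the TNF convertase, was at 89.0, 85.8, 112 and 89.4 CPM against 20.4 and 24.3 CPM (1.43 ± 0.20, adjusted p of 1.2e-05). Adam19 differed by 1.21 ± 0.36 (adjusted p of 0.0069), a call that was lost with RLE size factors and with DESeq2.

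Adam12 (0.91 ± 0.32), Adam8 (0.95 ± 0.39), Adam33 (0.67 ± 0.38) and Adam15 (0.34 ± 0.21) were not called. Of the 9 genes of the class 8 had every D30 library above every 36.5 dpp library, the exception being the unread Adam28; over all genes tested 47.6% did. Sertoli cell markers (5580 to 9473 CPM at D30 against 696 to 917 CPM, 7 of 8 higher), peritubular markers (1340 to 2102 against 184 to 274 CPM, 7 of 7 higher) and macrophage markers (418 to 819 against 101 to 141 CPM, 5 of 7 higher) moved in the same direction. Leydig cell markers did not, with a sum of 325 to 600 CPM at D30 against 1571 to 1947 CPM. The part of these markers was not tested.

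The neural ADAMs did not move together. Adam23 was at 46.7, 53.5, 71.9 and 64.0 CPM at D30 against 7.87 and 5.99 CPM at 36.5 dpp, a log2 difference of 2.45 ± 0.22 (adjusted p of 1.1e-07, edgeR). Adam11 was at 7.32, 4.76, 3.78 and 3.57 CPM against 11.1 and 19.0 CPM (-2.26 ± 0.30, adjusted p of 5.8e-06). Adam22 was at 10.3, 8.97, 7.08 and 8.09 CPM against 12.5 and 14.8 CPM (-1.30 ± 0.24, adjusted p of 0.00016). Adam23 was above, and the other two were below, all libraries of 36.5 dpp. The neuron and Schwann cell markers summed to 292 to 410 CPM at D30 and 59.2 to 64.3 CPM at 36.5 dpp, with 2 of the 5 tested markers higher and 2 lower, and their part was not tested. The Adam22 and Adam18 calls were lost with library size only.

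**Figure D4:**
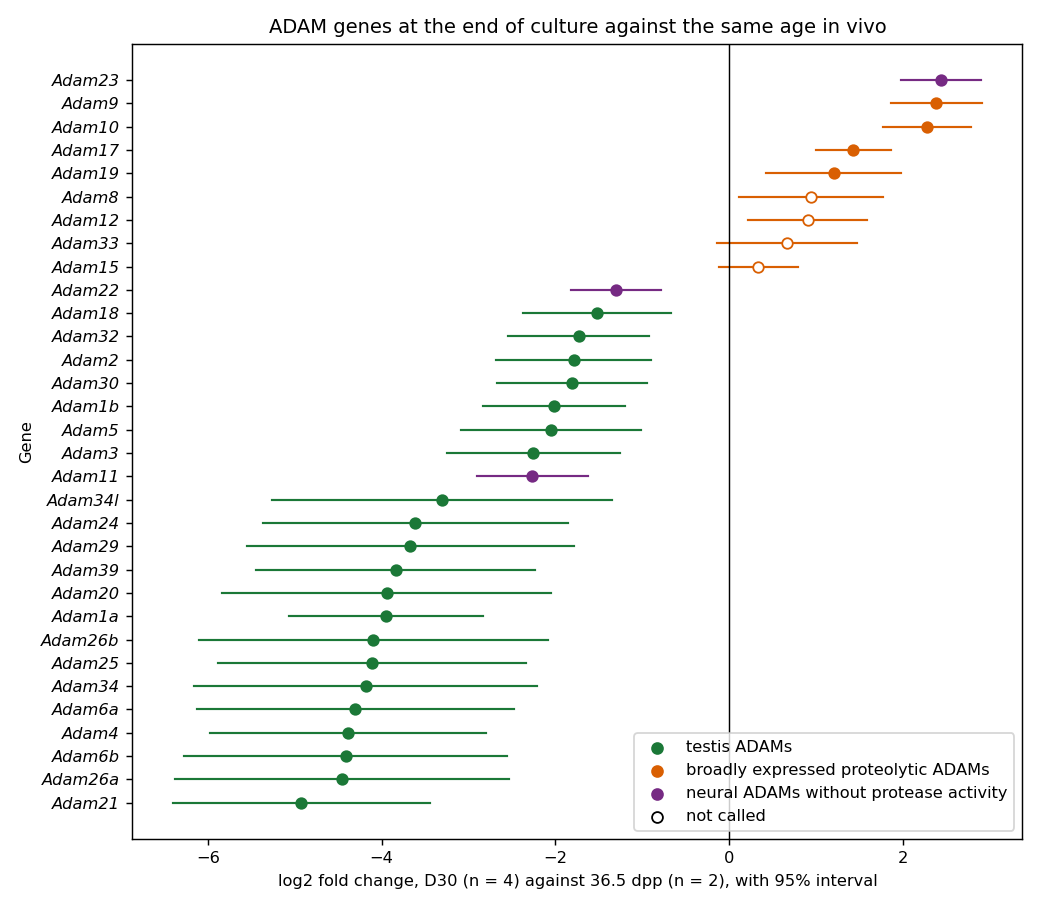
Fitted log2 fold change of the 32 tested ADAM genes at D30 (n = 4) against 36.5 dpp (n = 2), with the 95% interval of the edgeR fit. Filled points are called and open points are not; the 21 testis ADAMs (green) lie between -4.92 and -1.52, and the 5 higher genes between 1.21 and 2.45.

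By the test of the difference, the step from D16 to D30 differed from the step from 22.5 to 36.5 dpp in 7 ADAM genes, 5 higher in culture and 2 lower, against 9.11% and 8.26% of all genes. Adam9 (1.61 ± 0.32), Adam33 (1.61 ± 0.54), Adam23 (1.52 ± 0.28), Adam10 (1.33 ± 0.31) and Adam17 (1.04 ± 0.28) were the higher ones on the log2 scale, and Adam21 (-4.19 ± 0.98) and Adam1a (-3.05 ± 0.76) the lower. The Adam33 call was lost in 13 of 21 alternatives, with adjusted p from 0.01 to 0.21. In the same test 6 of 7 peritubular, 4 of 8 Sertoli cell and 4 of 7 macrophage markers were higher in culture and none lower, and 2 of 8 round and 2 of 8 elongating spermatid markers were lower; their part was not tested. With RLE size factors the split was 3 higher and 2 lower. The count was 2 without D16 replicate 1 and 17 without D16 replicate 2.

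The genes that work with ADAM proteins are given by lists. The first holds 12 factors that mouse sperm need to carry ADAM3, among them the chaperone Clgn, the surface protein Tex101 and the membrane proteins Cmtm2a and Cmtm2b. Of these factors 8 rose from 10.5 to 22.5 dpp, 6 from 22.5 to 36.5 dpp and 6 from D4 to D16, and none fell in these steps, where 27.9%, 20.5% and 16.6% of all genes were called higher. From D16 to D30 3 rose (Calr3, Prss37 and Pmis2, named after their values were seen), against 1.41% of all genes. Against 36.5 dpp 10 were lower at D30 and none higher, where 29.8% of all genes were called lower, with a median log2 difference of -2.38. Clgn differed by -1.26 ± 0.32, Cmtm2b by -1.99 ± 0.58 and Cmtm2a by -1.76 ± 0.52, while Tex101 at -0.33 ± 0.39 passed no threshold.

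The list of regulators of ADAM10 and ADAM17 holds 11 genes, 10 of them tested. At D30 against 36.5 dpp 6 were higher and none lower, where 25.2% of all genes were called higher and 29.8% lower, with a median log2 difference of 1.2. Furin, which removes the prodomain of many ADAMs, differed by 2.27 ± 0.36, the iRhom gene Rhbdf2, which carries ADAM17 to the surface, by 3.26 ± 0.42, and the ADAM10 partners Tspan5 and Tspan17 by 1.15 ± 0.15 and 3.00 ± 0.34. Between 10.5 and 22.5 dpp 4 of the 10 fell, against 18.4% of all genes, Furin by 1.15 ± 0.30 and Rhbdf2 by 2.46 ± 0.35 on the log2 scale. Tspan17 had risen by D4, by 2.5 ± 0.26 against 6.5 dpp.

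Of the 5 inhibitors 4 were higher at D30 than at 36.5 dpp: Timp1 (3.11 ± 0.33), Timp3, the TIMP that blocks ADAM17 (2.08 ± 0.31), Timp2 (1.51 ± 0.19) and Reck (1.44 ± 0.28). Timp4, the fifth gene, was lower. Over all genes 25.2% were called higher and 29.8% lower. Timp1 and Timp2 had already risen at D4 against 6.5 dpp, by 2.46 ± 0.25 and 1.57 ± 0.16.

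Of 17 genes whose proteins are shed by ADAM10 or ADAM17, 10 were higher at D30 than at 36.5 dpp and 3 lower, against 25.2% and 29.8% of all genes, with a median log2 difference of 1.92. Kitl, the Sertoli cell ligand of the KIT receptor, differed by 2.38 ± 0.30, Notch2 by 2.25 ± 0.41 and App by 1.92 ± 0.25, while Cdh2 at 0.39 ± 0.21 passed no threshold. In vivo 6 of the 17 fell and 2 rose from 10.5 to 22.5 dpp, against 18.4% and 27.9% of all genes. The 4 LGI ligand genes of the neural ADAMs did not share a direction at D30 against 36.5 dpp, with Lgi4 (1.41 ± 0.37) and Lgi3 (1.33 ± 0.50) higher, Lgi1 (-1.13 ± 0.36) lower and Lgi2 (-0.65 ± 0.27) not called.

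Freezing left no call in the family. With stage in the model, 0 of the 32 ADAM genes differed between frozen and fresh libraries by edgeR, and 0 by DESeq2; over all genes 0% were called by edgeR, 1261 had an unadjusted p under 0.05, and DESeq2 called 3. Frozen and fresh libraries were held together at 6.5 dpp, with 1 fresh library, and at D30, with 1 frozen library, which limits what this comparison can show. Adam3 had the largest log2 difference in proportion to its error among the 32 genes, -0.76 ± 0.49 (adjusted p of 0.65).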

How the data were processed

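RNA-Seq libraries were made from poly-A RNA with a stranded kit and read as single 50-base reads. Per the study's methods and the submitters' processing notes, the authors aligned reads to GRCm38 with STAR 2.7.3a and deposited raw counts per NCBI gene from HTSeq 0.12.4 (intersection-nonempty; strand setting not given in the sources used here). The deposited counts are not normalized, and 0.0207% of them fell on genes outside the annotation. Of 23 libraries 21 were analysed, with frozen and fresh tissue together in 7 groups as in the study.

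Counts were tested with edgeR 4.0.16 (R 4.3.3): filterByExpr by group, TMM, quasi-likelihood F test, all 7 groups in one fit, Benjamini-Hochberg over 19255 genes. Genes were called from 2-fold upwards where the adjusted p was below 0.05. Every ADAM gene was open to naming, and of each other list at most the 4 genes with the highest mean CPM. The family, whose members follow from the name rule, and the lists were chosen with earlier results of these data known. A gene with 3 counts or fewer in every library of a group was given a lower bound in place of a fold. CPM used library totals, and CPM per kb the exon union of GENCODE M21; coordinates, symbols and promoters came from RefSeq (GRCm38.p6). The tests were first tested on simulated counts with known changes. Alternatives covered scaling, filtering, DESeq2 1.42.0, thresholds, samples and single libraries left out. Depth bounds low values by counting error; PCR copies are not separate molecules.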

Additional observations from a re-analysis of the deposited data

Results flagged for a closer look

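Single libraries stood apart from the other libraries of their group for 5 of 52 gene and group pairs that could be checked (groups of 4 libraries only), where chance gives about 1 in 20. In 6.5 dpp CSF replicate 3 the lowest values were Adam9 at 44.9 CPM (the others 75.0 to 78.1), Adam17 at 75.1 CPM (121 to 128) and Adam22 at 4.76 CPM (10.5 to 10.8). In D30 FT replicate 3 the highest values were Adam12 at 10.5 CPM (7.22 to 7.70) and Adam17 at 112 CPM (85.8 to 89.4). That 6.5 dpp library had the smallest total, 28351546 counts; the part of depth was not tested.

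Steps in culture and in vivo differed by the test of the difference itself in edgeR for 10 gene and step pairs. For D4 to D16 against 10.5 to 22.5 dpp the log2 differences were -1.86 for Adam11, -3.71 for Adam2 and -1.66 for Adam23. For D16 to D30 against 22.5 to 36.5 dpp they were 1.33 for Adam10, 1.04 for Adam17, 1.52 for Adam23, 1.61 for Adam33, 1.61 for Adam9, -3.05 for Adam1a and -4.19 for Adam21.

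The library labelled 6.5 dpp FT replicate 1, which entered no comparison, had 21 of 21 testis ADAMs above every other 6.5 dpp library. Its testis ADAMs summed to 2023 CPM, against 4.37 to 5.40 CPM in the other 6.5 dpp libraries and 775 to 2153 CPM at D16. Adam2 was at 390 CPM there, Adam5 at 616 CPM, Adam24 at 11.9 CPM and Adam23 at 28.3 CPM.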

How the results depend on the processing

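Limits: D16 and 36.5 dpp held 2 libraries each, close copies share reads, and whole tissue mixes cell types. Calls of genes that an alternative left untested were not counted. Of the 1848 named fold changes that were tested under alternatives, 1664 kept direction and call and 180 kept direction without the call. The other 4 changed direction or fell to 0, none of them under another scaling or DESeq2. These were Adam2 at D4 against 6.5 dpp with 6.5 dpp FT replicate 1 kept in (-5.89 on the log2 scale) and, for D16 against D4 without D16 FT replicate 1, Adam34 (0, and 9.28 without D16 FT replicate 2), Adam34l (0, and 8.27) and Adam21 (-0.0246, and 4.13). The cause of the changes was not tested.

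ADAM genes called under a log2 change of at least 2 and an adjusted p of at most 0.001 were 5 (36.5 against 22.5 dpp), 1 (D4 against 6.5 dpp), 11 (D16 against D4), 0 (D30 against D16), 1 (D4 against 10.5 dpp), 1 (D16 against 22.5 dpp), 15 (D30 against 36.5 dpp) and 0 for both step differences. With 6.5 dpp FT replicate 1 kept in, the same comparisons gave 11, 1, 3, 0, 1, 1 and 15, and the step differences 0 and 4. Only the groups compared gave 9 (D16 against D4), 0 (D30 against D16), 1 (D16 against 22.5 dpp) and 3 (step D16 to D30). Fresh libraries only gave 1 at D4 against 6.5 dpp, and DESeq2 gave 2 at D30 against D16. Of alternatives added after seeing the data, leaving out the second libraries of 22.5 dpp and D16 gave 0 (D30 against D16), 2 (D16 against 22.5 dpp) and 16 (step D16 to D30), and leaving out 6.5 dpp CSF replicate 3 and D30 FT replicate 3 gave 2 (D30 against D16).

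Leaving out each library in turn gave 0 to 0 calls (10.5 against 6.5 dpp), 24 to 25 (22.5 against 10.5 dpp), 17 to 21 (36.5 against 22.5 dpp), 3 to 4 (D4 against 6.5 dpp), 7 to 22 (D16 against D4), 0 to 12 (D30 against D16), 2 to 2 (D4 against 10.5 dpp), 1 to 24 (D16 against 22.5 dpp), 27 to 29 (D30 against 36.5 dpp), 2 to 5 and 2 to 17 (step differences) and 0 to 0 (frozen against fresh). The replicate numbers did not pair the libraries: deviations of 52 same-numbered pairs correlated from -0.591 to 0.663, and other pairs reached 0.665. With the replicate block the counts were 19 (36.5 against 22.5 dpp), 17 (D16 against D4), 0 (D30 against D16), 5 (D16 against 22.5 dpp), 29 (D30 against 36.5 dpp) and 6 (step D16 to D30), with the other counts as before.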
